A study of Homo sapiens with 6 samples.

Results

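The genes described here are 10 components of the transforming growth factor beta (TGF-beta) pathway: the ligands TGFB1 and TGFB2, the receptors TGFBR1 and TGFBR2, the signal transducers SMAD2, SMAD3, SMAD4 and SMAD7, and the repressors SKI and SKIL. They were chosen by symbol. Each is represented by the transcript cluster (the probe sets summarised as 1 value) whose array annotation gives only that symbol, and, where a gene has several, by the one with the highest mean over the 6 arrays. All 10 were found, out of 15949 genes with 1 symbol on the array. Of them, 9 had 1 cluster and SMAD2 had 2, which makes 11 clusters, and no cluster with several symbols held any of them.

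The cells were PLC/PRF/5, a long-established line from a human liver cancer (hepatocellular carcinoma), and RNA was taken 48 h after they were transfected with small interfering RNA (siRNA). The control group (3 arrays) received an irrelevant siRNA, called siGL in the protocols, and the knockdown group (3 arrays) received siRNAs against SLU7, a splicing factor of the second catalytic step. Both groups were grown in the same medium, no ligand was named among the treatments, and the whole series is 1 cell line. The series text names 1 control siRNA whereas the samples number both siRNAs from 1 to 3; those numbers were read as replicates, and whether replicates were separate cultures is not stated, so the p-values measure the spread between arrays only.

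TGF-beta is secreted in a latent form and, once released, binds the type II receptor TGFBR2, which recruits and phosphorylates the type I receptor TGFBR1. That kinase phosphorylates SMAD2 and SMAD3, which enter the nucleus with SMAD4 and regulate transcription. SMAD7 and the SKI and SKIL proteins restrain the pathway, and SMAD7 and SKIL are themselves induced by it as feedback. In liver epithelial cells the pathway is known for growth arrest, apoptosis and epithelial to mesenchymal transition.

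Exon arrays measured total RNA, and each gave 1 log2 value for each of 18708 transcript clusters, with array medians from 6.61 to 6.63 log2 units. Groups were compared with limma, and a cluster was called when its Benjamini-Hochberg adjusted p over all clusters was under 0.05. By that rule 0.433% of clusters were called (0.299% of all clusters as lower). The typical standard error of a difference was 0.31 log2 units, so that the number of arrays limits the precision. The smallest difference called was 2.72-fold, so a gene that was not called is not shown to be unchanged. SLU7 itself stood at 7.89, 7.01 and 7.24 log2 units in the control arrays and at 5.84, 5.58 and 6.21 in the knockdown arrays, 2.84-fold lower without overlap (limma adjusted p of 0.0783). On the first principal component, with 36.6% of the variance, 1 array of each group (control replicate 2 and SLU7 replicate 1) lay far from the remaining 4. Of 10 measured hepatoma markers, TF (12.24 log2 units in control arrays), APOA1 (11.55), KRT18 (12.86), KRT8 (11.51), FGB (10.30) and APOB (9.82) were bright. SERPINA1 (5.07), TTR (5.97) and AFP (6.01) lay below every array median in the control arrays. ALB, the albumin gene, lay at 3.87, below the lower quartile of every array (4.86 to 4.98 log2 units). All 10 markers had differences below 0, with a median of -0.55 and none called, and the log2 of their summed signal ran from 14.30 to 14.40 in the control arrays and from 13.87 to 13.99 with SLU7 siRNA; their part in the results below was not tested.

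The largest differences among the 10 genes were in the brighter of 2 SMAD2 clusters and in SMAD3, and the partner SMAD4 differed the other way. The brighter SMAD2 cluster and SMAD3, the transducers that the receptor phosphorylates, were lower in every SLU7 siRNA array than in every control array, by 3.23-fold and 2.58-fold. The second SMAD2 cluster overlapped between groups, with a log2 difference of -0.09, and the average of both was -0.89. The first ranks as brighter by its mean over the 6 arrays, which its control arrays set (means of 7.98 against 6.59 log2 units). With SLU7 siRNA its mean was the lower one (6.29 against 6.49). Choosing that cluster therefore favours a lower reading for SMAD2. SMAD4, their shared partner, and SKIL, a repressor that binds them, were higher in every SLU7 siRNA array, by 1.67-fold and 1.83-fold. The ligand TGFB1 was 1.49-fold lower without overlap, and SMAD7 did not move apart between the groups. None of these passed the adjusted threshold: limma called 0 of the 10 genes. At an unadjusted p under 0.05 the count was 5 of 10, 3 lower and 2 higher, where 13.1% of all clusters met that mark (6.54% as lower and 6.55% as higher), and the lowest adjusted p-values, those of SMAD2 (0.0515) and SMAD3 (0.0539), lay just above 0.05.

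The 3 arrays of each group lay apart in 6 of the 10 genes, where 18.9% of all clusters did so. TGFBR2, SMAD4 and SKIL were apart as higher (9.64% of clusters) and TGFB1, SMAD2 and SMAD3 as lower (9.21%). The median log2 difference over the 10 genes was -0.37, with 7 below 0, beside a median of 0.0043 over all clusters, of which 49.5% were below 0. The median of -0.37 and the count of 6 genes use the brighter SMAD2 cluster, whereas the second one (-0.09) overlapped between groups. The median over the 10 genes was -0.50 without SLU7 replicate 3 and -0.25 without SLU7 replicate 2. In the 4 arrays that lie together it was -0.22, and within the outlying pair -0.18. Over the 9 genes left without the dimmest 25% of clusters it was -0.19. The median absolute difference over all 10 genes was 0.64 log2 units and that of all clusters 0.29. An exact two-sided permutation test of a single gene cannot go below p = 0.1 with 3 arrays against 3. Groups without overlap always give that value, so for the 6 genes it adds nothing to the lack of overlap.

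**Figure D1:**
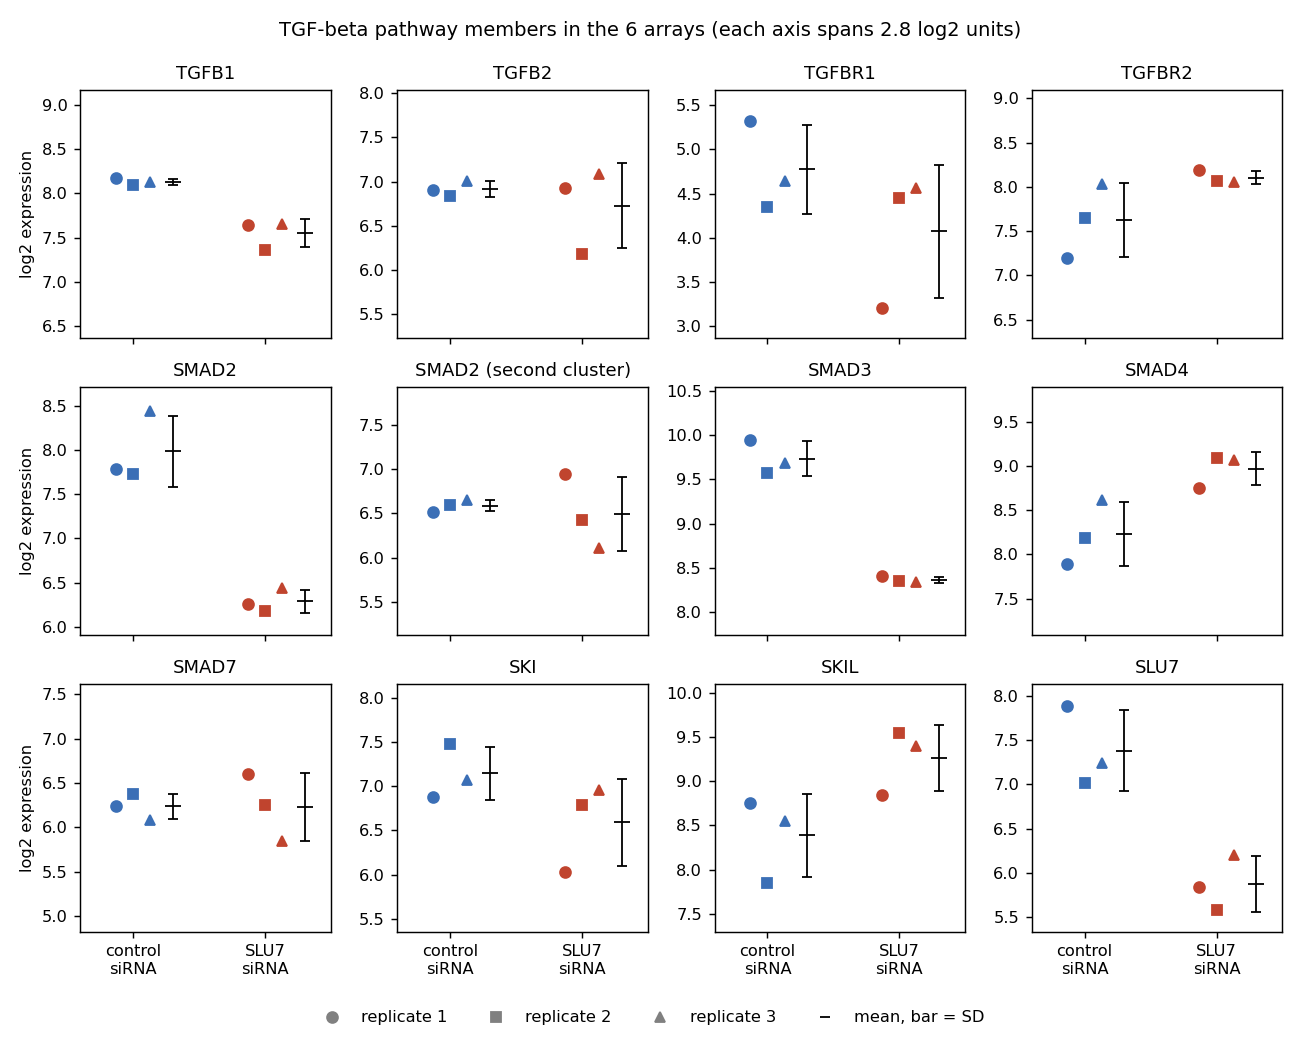
Log2 expression (vertical axis, 2.8 log2 units in each panel) of the 10 genes, the second SMAD2 cluster and SLU7 in control siRNA arrays (blue) and SLU7 siRNA arrays (red); symbols mark the replicate number, and horizontal ticks with bars give the mean and SD of 3 arrays. The red points lie wholly below the blue ones for TGFB1, the brighter SMAD2 cluster, SMAD3 and SLU7, and wholly above them for TGFBR2, SMAD4 and SKIL.

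Of the ligands, TGFB1, the isoform most studied in liver disease, measured 8.17, 8.10 and 8.13 log2 units in the control arrays and 7.64, 7.37 and 7.66 with SLU7 siRNA. The control arrays lay within 0.07 log2 units of each other and every knockdown array lay at least 0.44 below them. The difference was -0.58 ± 0.24 (SE) log2 units, or 66.9% of the control level, with an unadjusted limma p of 0.0377 and an adjusted p of 0.344. TGFB2, a second ligand isoform, measured 6.91, 6.84 and 7.01 in the control arrays and 6.92, 6.18 and 7.09 with SLU7 siRNA. Its groups overlapped: SLU7 replicate 2 was low, and without that array the difference of -0.19 ± 0.30 (SE) became 0.09.

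Of the receptors, TGFBR2, the type II receptor that binds the ligand, measured 7.20, 7.65 and 8.03 log2 units in the control arrays and 8.19, 8.07 and 8.06 with SLU7 siRNA. The knockdown arrays were close together and the control arrays were not, and the nearest arrays of the 2 groups were only 0.03 apart. The difference was 0.48 ± 0.28 (SE), with a limma adjusted p of 0.552, and it was 0.27 with control replicate 1 left out and 0.68 with control replicate 3 left out. TGFBR1, the type I receptor kinase, measured 5.33, 4.35 and 4.64 in the control arrays and 3.21, 4.45 and 4.57 with SLU7 siRNA. It was dim, with both group means (4.77 and 4.08) below the lower quartile of the arrays, which leaves the size of its difference uncertain. SLU7 replicate 1 alone lay far below the control arrays: the difference was -0.70 ± 0.42 (SE; adjusted p of 0.566) over the 6 arrays, -0.27 without that array and -0.42 without control replicate 1.

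Of the SMADs that the receptor activates, SMAD2 (transcript cluster 3806909) measured 7.78, 7.72 and 8.44 log2 units in the control arrays and 6.26, 6.18 and 6.44 with SLU7 siRNA. The lowest control array lay 1.29 log2 units above the highest knockdown array, a gap wider than the range within either group (0.72 and 0.26). The difference was -1.69 ± 0.28 (SE) log2 units, which is 3.23-fold lower (95% interval 2.07 to 5.05) or 30.9% of the control level. SMAD3 (cluster 3599037), the second receptor-activated transducer, measured 9.95, 9.57 and 9.69 in the control arrays and 8.41, 8.36 and 8.34 with SLU7 siRNA. The knockdown arrays agreed within 0.07 log2 units and lay at least 1.16 below the control arrays. The difference was -1.37 ± 0.24 (SE), 2.58-fold lower (95% interval 1.77 to 3.77) or 38.7% of the control level. Both genes passed the adjusted threshold without the dimmest 25% of clusters (limma adjusted p of 0.0231 for SMAD2 and 0.0243 for SMAD3), and over all tested alternatives the adjusted p ran from 0.0117 to 0.208 for SMAD2 and from 0.0120 to 0.219 for SMAD3.

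The second SMAD2 cluster (3806957) did not share this pattern. It measured 6.52, 6.60 and 6.65 log2 units in the control arrays and 6.94, 6.42 and 6.11 with SLU7 siRNA, so that the knockdown arrays lay on both sides of the control arrays. Its difference was -0.09 ± 0.28 (SE), with a limma adjusted p of 0.951 and a 95% interval from -0.74 to 0.55 log2 units. Taken within each array, the change of the brighter cluster minus that of the second one was -1.60 ± 0.36 (SE) log2 units, without overlap between the groups. This SE, like those of the later within-array comparisons, comes from the spread of the arrays alone and not from limma. With the 2 clusters averaged, the SMAD2 difference was -0.89 log2 units. Which exons each cluster covers was not analysed here, and each value summarises all probe sets of its cluster, so a shift in exon use and a shift in level cannot be told apart.

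SMAD4, which completes the active SMAD complex, measured 7.89, 8.19 and 8.61 log2 units in the control arrays and 8.75, 9.09 and 9.06 with SLU7 siRNA. The groups did not overlap, but the gap of 0.14 was narrower than the 0.72 range of the control arrays. The difference was 0.74 ± 0.28 (SE), with an unadjusted limma p of 0.0272 and an adjusted p of 0.298. Relative to SMAD4 in the same arrays, the change of the brighter SMAD2 cluster was -2.43 ± 0.17 (SE) log2 units. That of SMAD3 was -2.11 ± 0.32 (SE). These within-array SEs are not from limma and cannot be compared with those of single genes. That the groups lie apart here already follows from the values of each gene. The brighter SMAD2 cluster and SMAD3 differed in their change by -0.33 ± 0.29 (SE) log2 units, with overlapping groups. Without control replicate 1 this was -0.53 and without control replicate 3 it was -0.07. The second SMAD2 cluster, with a difference of -0.09, was not set against SMAD3 or SMAD4, so these values do not hold for SMAD2 as a whole.

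SMAD7, the inhibitory SMAD that blocks and degrades the activated receptor, measured 6.24, 6.38 and 6.08 log2 units in the control arrays and 6.60, 6.25 and 5.84 with SLU7 siRNA. The knockdown arrays spanned the control arrays on both sides, and the difference was -0.01 ± 0.28 (SE), with a 95% interval from -0.64 to 0.63 log2 units. Its sign turned with quantile normalization (0.0073) and with median centring (0.0015), so that no direction can be given.

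Of the nuclear repressors, SKIL (SnoN) measured 8.76, 7.86 and 8.55 log2 units in the control arrays and 8.84, 9.54 and 9.40 with SLU7 siRNA. SLU7 replicate 1 exceeded the highest control array by only 0.08, while the other two knockdown arrays stood well above it. The difference was 0.87 ± 0.33 (SE), 1.83-fold higher (95% interval 1.09 to 3.08), with an unadjusted limma p of 0.0273 and an adjusted p of 0.299. SKI, its paralog, measured 6.88, 7.48 and 7.07 in the control arrays and 6.03, 6.78 and 6.95 with SLU7 siRNA. The groups overlapped, and the difference of -0.55 ± 0.32 (SE; adjusted p of 0.547) was larger in the pair of arrays that stand apart: it was -1.44 between those 2 arrays and -0.11 within the other 4. Without SLU7 replicate 1 it was -0.28. Relative to SKIL in the same array, the change of SKI was -1.43 ± 0.46 (SE) log2 units, without overlap between groups. The same within-array comparison gave -1.18 ± 0.68 (SE) for TGFBR1, which was dim, relative to TGFBR2, also without overlap, but -0.70 without SLU7 replicate 1 and -0.69 without control replicate 1, and -0.39 ± 0.19 (SE) for TGFB1 relative to TGFB2, with overlap. The 7 pairs compared within arrays were drawn up after the values were seen and are descriptions with no test.

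**Figure D2:**
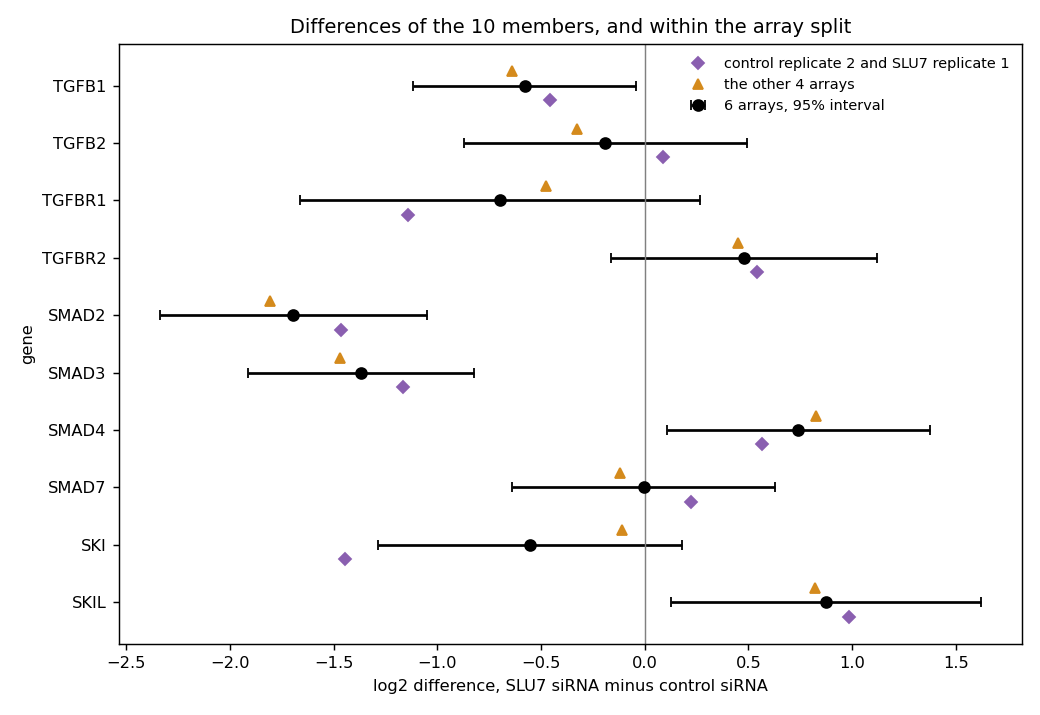
Log2 difference between SLU7 siRNA and control siRNA (horizontal axis) for each of the 10 genes: black points with 95% intervals from limma on all 6 arrays, orange triangles for the 4 arrays that lie together on the first principal component, and purple diamonds for the single difference between SLU7 replicate 1 and control replicate 2. SMAD2 and SMAD3 lie at or below -1.16 in all 3 readings, SMAD4 and SKIL at or above 0.57, and the SKI readings run from -1.44 to -0.11.

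Within the pair of arrays that stand apart, which gives 1 difference with no error, the log2 difference was -1.47 for SMAD2 and -1.16 for SMAD3, and within the other 4 arrays it was -1.81 and -1.47. SMAD4 was 0.57 higher in the pair and 0.83 higher in the other 4, and SKIL 0.98 and 0.82 higher. For TGFB1 it was -0.46 and -0.64, and for TGFBR2 0.54 and 0.45. The 6 genes without overlap therefore held their direction on both sides of this split, which groups without overlap cannot lose.

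The upstream sequences of 4 genes are shown because their group means differed most, SMAD2 and SMAD3 as lower and SMAD4 and SKIL as higher. They are the 250 bases before the most upstream start listed by RefSeq (build GRCh38.p14), 5′ to 3′ on the strand of the gene, with every SMAD box (AGAC, read on both strands) in capitals. SMAD2 lies at chr18:47930873-47931122 on the minus strand, and SMAD3 at chr15:67065352-67065601, SMAD4 at chr18:51029963-51030212 and SKIL at chr3:170357465-170357714 on the plus strand.
SMAD2: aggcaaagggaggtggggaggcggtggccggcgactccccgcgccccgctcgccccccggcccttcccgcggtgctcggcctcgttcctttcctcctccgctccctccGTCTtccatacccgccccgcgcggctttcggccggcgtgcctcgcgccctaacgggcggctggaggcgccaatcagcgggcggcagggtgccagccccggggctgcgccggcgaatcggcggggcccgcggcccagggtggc
SMAD3: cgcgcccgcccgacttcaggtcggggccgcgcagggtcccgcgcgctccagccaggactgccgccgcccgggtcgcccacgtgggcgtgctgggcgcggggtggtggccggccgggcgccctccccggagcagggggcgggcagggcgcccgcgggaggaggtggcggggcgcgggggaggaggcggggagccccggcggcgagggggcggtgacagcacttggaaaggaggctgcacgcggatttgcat
SMAD4: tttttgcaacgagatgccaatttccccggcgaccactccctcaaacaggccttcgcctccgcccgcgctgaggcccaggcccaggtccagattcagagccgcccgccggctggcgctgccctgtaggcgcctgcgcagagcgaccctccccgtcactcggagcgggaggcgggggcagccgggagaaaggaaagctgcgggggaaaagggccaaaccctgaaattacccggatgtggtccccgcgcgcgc
SKIL: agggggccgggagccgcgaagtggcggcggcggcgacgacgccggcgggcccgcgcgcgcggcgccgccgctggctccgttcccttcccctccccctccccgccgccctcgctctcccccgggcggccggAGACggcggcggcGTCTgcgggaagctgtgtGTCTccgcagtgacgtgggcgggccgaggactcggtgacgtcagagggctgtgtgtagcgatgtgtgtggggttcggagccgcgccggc

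All 4 windows are rich in G and C, from 68.4% in SMAD4 to 80.8% in SMAD3, where the median of 35116 listed promoters was 58.0%. The SKIL window holds 3 SMAD boxes and the SMAD2 window 1, while those of SMAD3 and SMAD4 hold none. Windows at other listed starts of SMAD3 do hold boxes, up to 5 in 1 window. At least 1 box was found in 77.5% of all windows of this length, with a median of 1, so most promoters carry it. These background values, and that for G and C, cover every listed start and not only the most upstream one of each gene. Of the 10 genes, 9 were matched in the table (all but SKI), and 6 of those 9 had a box in their most upstream window. The palindrome GTCT followed directly by AGAC, present in 0.182% of all windows, was in none of the 24 windows listed for these genes. The reverse order, AGAC followed directly by GTCT, was in 1 of the 24, the most upstream window of SMAD7, and in 0.137% of all windows. A match to 4 letters describes the sequence only and is not a binding site.

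The brighter SMAD2 cluster had the largest difference of the 10, and its profile over the 6 arrays, centred on its own mean, was compared with that of every other gene. The nearest by Euclidean distance were ARHGEF12, which activates RHOA (distance 0.317 log2 units), KLHDC2, a substrate receptor of a ubiquitin ligase (0.353), the transcription factor HLF (0.429), the secreted glycoprotein RELN (0.437) and the basement membrane collagen COL18A1 (0.440). Their log2 differences lay between -1.73 and -1.61, which likeness to SMAD2 fixes, so no test was made of them as a group. In the limma fit over all clusters, KLHDC2 and HLF were called (adjusted p of 0.0455 and 0.0485) and the others were not. SMAD3 came at place 95 of 15948 genes (distance 0.806), the nearest of the other 9 genes of the pathway, followed by TGFB1 at place 901. This likeness is a description over 6 arrays and is dominated by the difference between the groups.

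**Figure D3:**
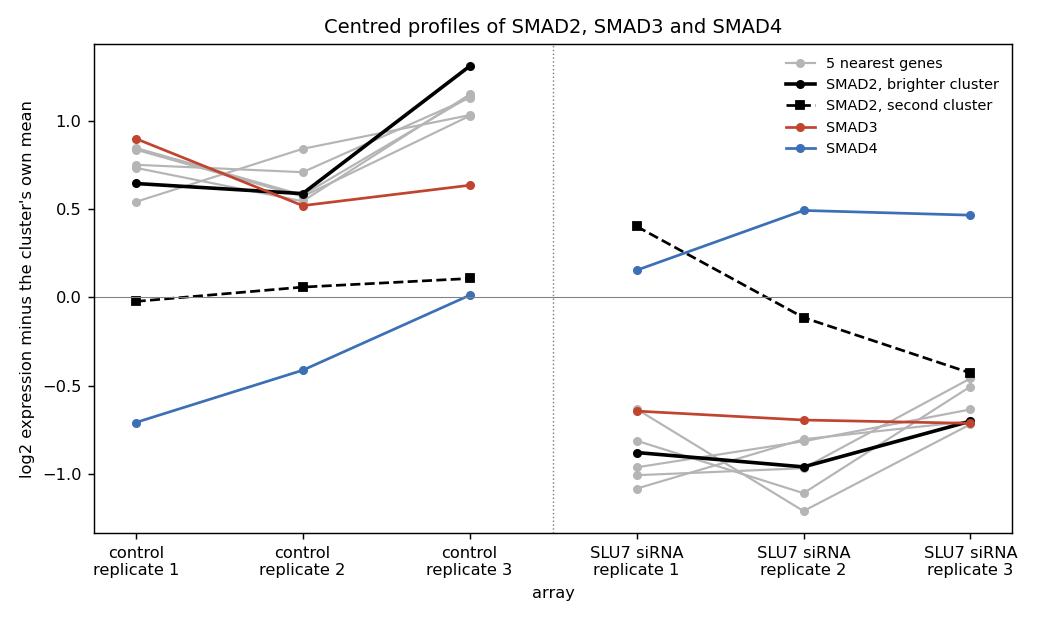
Log2 expression minus the cluster's own mean (vertical axis) in each of the 6 arrays (horizontal axis) for both SMAD2 clusters, SMAD3, SMAD4 and the 5 genes nearest to the brighter SMAD2 cluster (grey); lines join arrays of a group only to keep a gene together and imply no order. The brighter SMAD2 cluster, SMAD3 and the grey genes lie above 0 in the control arrays and below 0 with SLU7 siRNA, whereas the second SMAD2 cluster stays near 0 in the control arrays and SMAD4 lies above 0 in all 3 knockdown arrays.

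Around these genes, 8 lists covered the rest of the pathway. Among 29 measured regulators of receptors and SMADs, 1 (3.45%) fell and none rose by the adjusted threshold, where 0.433% of all clusters were called. The one that fell was NEDD4L, a ubiquitin ligase that targets activated SMAD2 and SMAD3 for degradation. It measured 7.39, 7.72 and 7.93 log2 units in the control arrays and 5.20, 5.91 and 5.51 with SLU7 siRNA, a difference of -2.14 ± 0.29 (SE) or 4.41-fold (limma adjusted p of 0.0371). That call was lost with any 1 array left out (limma adjusted p from 0.0632 to 0.180), where no cluster at all was called. The NEDD4L difference itself stayed between -2.33 and -1.97. At an unadjusted p under 0.05, 5 regulators (17.2%) were lower, beside 6.54% of all clusters, and none higher, so that the share in either direction was near the 13.1% of all clusters. Among them were USP9X (-0.98 ± 0.25), a deubiquitinase that acts on SMAD4, and BAMBI (-0.73 ± 0.24), a pseudoreceptor that dampens signalling. RNF111 (Arkadia), the ligase that degrades SKIL, SKI and SMAD7, was higher in every knockdown array by 0.33 ± 0.24 log2 units, with an adjusted p of 0.660; it was 0.22 without SLU7 replicate 2 and 0.13 within the outlying pair. The list median was 0.00074 log2 units, and its sign turned in 6 of the alternative analyses.

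Among 26 other ligands of the superfamily, limma called none, and 7 (26.9%) had an unadjusted p under 0.05, 5 lower and 2 higher, beside 13.1% of all clusters. INHBE, an activin subunit made by liver cells, measured 7.32, 7.23 and 6.82 log2 units in the control arrays and 6.41, 5.19 and 5.32 with SLU7 siRNA. Its difference was -1.48 ± 0.37 (SE; adjusted p of 0.122), SLU7 replicate 1 was the highest of the knockdown arrays, and the difference within the outlying pair was -0.81. AMH, the anti-Mullerian hormone, was higher by 0.84 ± 0.23 (SE; adjusted p of 0.157). BMP6, a ligand through which liver cells sense iron, differed by -0.84 ± 0.26 and GDF15, a stress-induced ligand, by 0.64 ± 0.25. The list had a median of -0.26 log2 units with 18 of 26 below 0, and it ran from -0.42 without control replicate 1 to -0.10 without SLU7 replicate 2, with -0.15 without control replicate 2.

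Of 12 other receptors and co-receptors none was called and 3 had an unadjusted p under 0.05, beside 13.1% of all clusters. The type II activin receptors ACVR2A and ACVR2B differed in opposite directions, at 0.77 ± 0.28 and -0.59 ± 0.24 (SE) log2 units (limma adjusted p of 0.270 and 0.341). Of 3 other SMADs, none was called or had an unadjusted p under 0.05. SMAD1 and SMAD5, the transducers of bone morphogenetic proteins, measured 0.35 ± 0.32 and -0.22 ± 0.29 (SE) log2 units. Leaving out 1 array moved SMAD1 between 0.11 (control replicate 2) and 0.58 (control replicate 3), with 0.53 without SLU7 replicate 1. SMAD5 moved between -0.49 (control replicate 2) and -0.07 (control replicate 1), with -0.09 without control replicate 3. Among 18 genes of ligand latency and activation none was called and 1 (5.56%) had an unadjusted p under 0.05: ITGAV, the integrin subunit that binds latent TGF-beta, at -0.83 ± 0.37 (SE) log2 units with overlapping groups and -0.42 within the outlying pair. MMP9, a matrix protease, was dim in both groups and measured -0.44 ± 0.23. Among 26 nuclear partners of SMADs and SKI none was called and 2 (7.69%) had an unadjusted p under 0.05, the SUMO ligase ZNF451 (0.82 ± 0.33) and the repressor ZEB1 (0.63 ± 0.27). ZNF451 was 0.50 without control replicate 2, and ZEB1 was 1.02 within the outlying pair and 0.44 in the other 4 arrays.

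Of 41 measured genes known to be induced by TGF-beta, limma called none, and the 7 with an unadjusted p under 0.05 were all lower. They make 17.1% of the list, beside 13.1% of all clusters in either direction and 6.54% as lower. FN1, which encodes fibronectin, measured 10.36, 10.28 and 10.09 log2 units in the control arrays and 8.95, 8.48 and 8.83 with SLU7 siRNA, a difference of -1.49 ± 0.25 (SE; adjusted p of 0.0518). ANGPTL4, an inhibitor of lipoprotein lipase, measured 9.99, 9.62 and 9.99 in the control arrays and 8.41, 8.39 and 8.49 with SLU7 siRNA, a difference of -1.44 ± 0.24 (SE; adjusted p of 0.0518). TGFBI, named after its induction by TGF-beta, and DAPK1, a pro-apoptotic kinase, differed by -1.36 ± 0.39 and -1.04 ± 0.26 (SE) log2 units. The list as a whole had a median of -0.14 with 25 of 41 below 0; it was -0.21 without SLU7 replicate 1, -0.07 without control replicate 2 or SLU7 replicate 2, and -0.06 without SLU7 replicate 3. Many of its members also answer to other signals, ANGPTL4 to hypoxia among them.

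Of 9 measured genes known to be repressed by TGF-beta, 1 (11.1%) fell and the others did not pass, where 0.433% of all clusters were called. It was CDH1, the gene of E-cadherin, at -1.86 ± 0.30 (SE) log2 units (limma adjusted p of 0.0485). That call was lost with any 1 array left out (limma adjusted p from 0.0790 to 0.193), where no cluster at all was called. At an unadjusted limma p under 0.05, 2 genes (22.2%) were lower and none higher, beside 13.1% of all clusters (6.54% as lower). The list median was -0.40, with 8 of 9 below 0. Of those 8, MYC and ID2 were dim in both groups. The lists of induced and of repressed genes both had negative medians. BMP6, GDF15, USP9X, BAMBI, RNF111, TGFBI and DAPK1 were named after their values were seen.

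**Figure D4:**
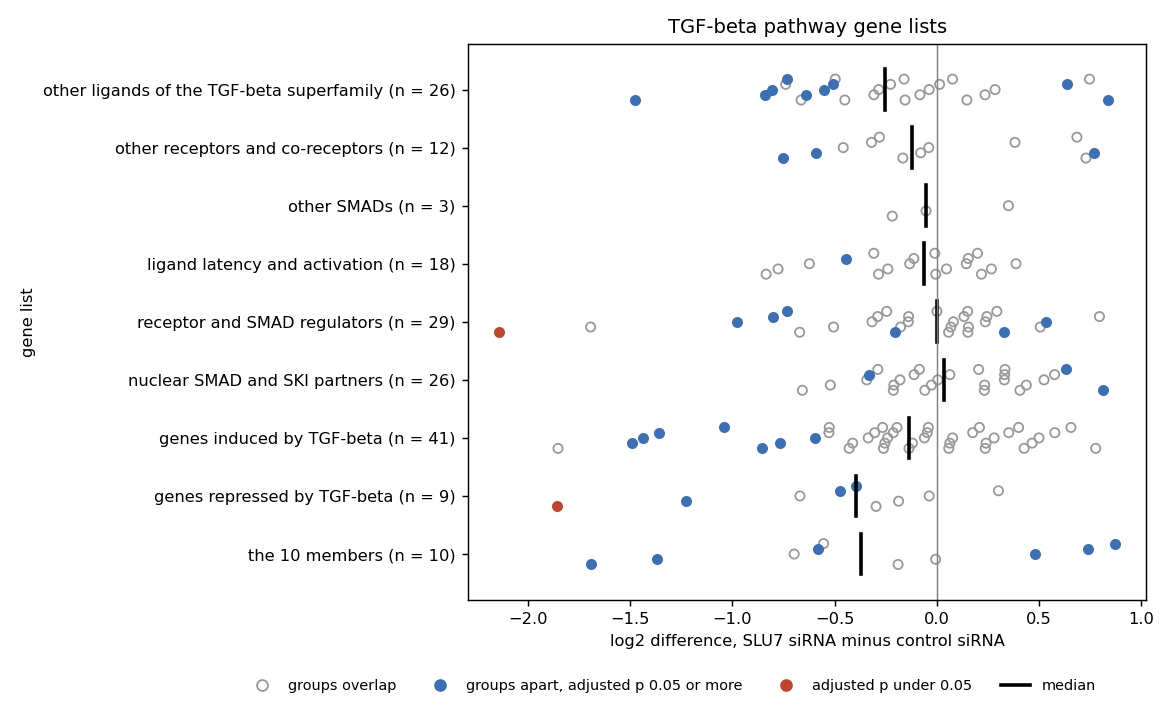
Log2 difference between SLU7 siRNA and control siRNA (horizontal axis) of every measured gene of 8 pathway lists and of the 10 genes described above; open circles are genes whose groups overlap, blue points genes whose groups lie apart without passing the adjusted threshold, red points genes that passed it, and black bars list medians. NEDD4L and CDH1 are the 2 red points, and both lie at or below -1.86.

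Markers of other cell types were not higher with SLU7 siRNA by the adjusted threshold. Of 12 markers of fibroblasts and stellate cells, none was called or had an unadjusted limma p under 0.05, and 7 were dim in both groups. The log2 of their summed signal ran from 9.30 to 9.80 in the control arrays and from 9.44 to 9.56 with SLU7 siRNA. Of 10 markers of blood and endothelial cells none was called, and 3 were dim in both groups. Only LYZ (10.0% of the list) had an unadjusted limma p under 0.05, beside 13.1% of all clusters. The summed signal of these markers ran from 10.43 to 10.79 and from 9.96 to 10.16, a difference carried by LYZ (from 10.07 to 9.17 log2 units). PTPRC, the pan-leukocyte marker, lay at 2.05 and 2.13. The endothelial markers KDR (7.05 and 6.77) and PECAM1 (7.05 and 6.82) lay above every array median. The part of either marker list in the results above was not tested, and in bulk samples fewer cells of a type and less RNA per cell cannot be told apart.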

How the data were processed

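Each of the 6 samples of total RNA was read on its own Affymetrix GeneChip Human Exon 1.0 ST. The deposited values are log2 expression, as read from their range. The core definition file from aroma.affymetrix was used, per the labels, and the submitters' processing notes name RMA. The genome build is not given in the sources used here. Deposited values were used without further scaling.

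Clusters were named by the platform annotation that GEO holds (16287 clusters with 1 symbol, 674 with several, 1747 with none). For the pathway lists, older symbols were updated through RefSeq GRCh38.p14 (2179 changed), and 193 of 210 listed genes had a cluster.

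The test was limma 3.58.1 in R 4.3.3 (lmFit, then eBayes without a trend), over all 18708 clusters, tested on simulated data. Each of 20 simulations changed 200 clusters, with noise that was independent between arrays and without the array split of the real data. Limma called 5.1% of the clusters changed by 1 log2 unit and 82.45% of those changed by 2. It made 6.85 false calls per simulation on average. Under these settings most changes of 1 log2 unit would thus be missed, and the shares may differ in the real data. Groups came from the sample titles. Named genes are the 10 members, SLU7, the called members of each list or otherwise the 2 with the largest moderated statistic, and the 5 nearest profiles. The members and lists were chosen with earlier results of these data known. Alternatives are in the closing section. No probe-level data or scan dates were used.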

Additional observations from a re-analysis of the deposited data

How the results depend on the processing

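The count of called clusters, 81 in the analysis reported, was 0 at a threshold of 0.01 and with a replicate block, 324 without the dimmest 25% of clusters, 441 with an intensity trend and robust shrinkage, and 575 with array weights. It was 0 in each analysis without 1 array (from 0 to 0). Of 2 alternatives chosen after seeing the data, blocking on that pair of outlying arrays gave 783 and the other 4 arrays alone gave 0. That block was read off the same arrays, so its p-values are likely too small. The count of called pathway members, 0 as reported, was 2 (SMAD2 and SMAD3) without the dimmer clusters, with the trend, with array weights and with the array block, and 1 (SMAD2) with quantile normalization. It was 0 with the replicate block and without any 1 array (from 0 to 0). Why the counts moved was not tested.

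The replicate numbers share only a number: deviations of same-numbered arrays correlated at -0.38, -0.31 and 0.14, and 0 of the 6 arrays correlated best with their own number. With the replicate block no cluster was called, and the unadjusted count fell from 2450 to 1845 clusters.

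Signs turned for SMAD7 with quantile normalization (0.0073), median centring (0.0015), without control replicate 2 (0.065), without SLU7 replicate 3 (0.19) and within the 2 arrays that stand apart (0.22). They also turned for TGFB2 without SLU7 replicate 2 (0.087) and within the 2 arrays (0.089), for the second SMAD2 cluster without SLU7 replicate 3 (0.097) and within the 2 arrays (0.34), and for SMAD5 within the 2 arrays (0.34). Without 1 array the TGFB2 difference ran from -0.37 to 0.087, that of SMAD7 from -0.19 to 0.19 and that of the second SMAD2 cluster from -0.32 to 0.097, while the SMAD2 difference ran from -1.82 to -1.46 and that of SMAD3 from -1.45 to -1.26. The cause of these shifts was not tested. Signal near background limits TGFBR1, which the filter on dim clusters removed.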
